A study of Mus musculus with 22 samples.

Results

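The genes described here number 8 and belong to the endothelial and blood lineages: Tek, Kdr and Pecam1 of blood vessels, the transcription factors Runx1 and Runx3, and Lyz2, Laptm5 and Adgre1 of white blood cells. They were taken by name, and every region of the deposited tables that overlapped a gene's mm10 extent, widened by 2500 bp on each side, was kept. This gave 80 of the 135566 regions of H3K27ac, a mark of active promoters and enhancers, and 17 of the 68845 regions of H3K9me3, a mark of silent heterochromatin. Of the H3K27ac regions, 12 lay at Tek, 4 at Kdr, 19 at Pecam1, 31 at Runx1, 5 at Runx3, 2 at Lyz2, 4 at Laptm5 and 3 at Adgre1. Of the H3K9me3 regions, 4 lay at Tek, 3 at Runx1, 2 at Runx3, 2 at Laptm5 and 6 at Adgre1, and none at Kdr, Pecam1 or Lyz2. Regions of a gene are numbered from the lowest coordinate up, separately for each mark. The regions of 1 gene are not replicates, and all comparisons between lines are over libraries.

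The study used chromatin immunoprecipitation with sequencing (ChIP-seq) in cells that had been reprogrammed from C57BL/6 mouse embryonic fibroblasts. The C2 line of induced pluripotent stem (iPS) cells carried the zinc-finger factors ZFATF1, ZFATF2 and ZFATF3 with Sox2, Klf4 and c-Myc. The C3 line carried ZFATF1, ZFATF2 and ZFATF4 with the same 3 factors. The OSKM line carried Oct4 in place of the zinc-finger factors, so Sox2, Klf4 and c-Myc were common to all 3 lines. All 3 lines carried an Oct4-MerCreMer reporter, had been given 4-hydroxytamoxifen at 100 nM and were fixed in 1.5% formaldehyde. Each line had 2 libraries per mark. The labels do not say whether the 2 came from separate cultures. The p-values therefore reflect only how far these libraries spread, and that spread may be technical. A further 4 libraries of the HA tag came from cells early in reprogramming, 2 from C2 cells at day 20 after transduction and 2 from the control labelled Empty, given with Sox2, Klf4 and c-Myc.

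Tek (also Tie2) and Kdr (also Vegfr2) are receptor tyrosine kinases on endothelial cells, for the angiopoietins and for vascular endothelial growth factor. Pecam1 is an adhesion molecule of endothelial cells and is also found on mouse embryonic stem cells. Runx1 starts the emergence of blood stem cells from hemogenic endothelium and is read from a distal and a proximal promoter. In pluripotent cells the enhancers of such lineage genes are mostly without active marks.

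Pluripotency markers, taken as a sum, carried H3K27ac in all 3 lines, which does not tell the lines apart. Of 10 such markers, each taken by its strongest region, 6 fell and none rose in C2 relative to OSKM, beside 5.38% of all regions called lower and 5.21% higher. In C3 only Zfp42 fell and none rose, beside 8.52% lower and 13.5% higher over all regions. Zfp42 lies on chromosome 8, which held a smaller share of the reads in C2 and C3 than in OSKM, and the part of that in this call was not tested. The summed level of these markers was 18833 to 25314 normalized reads in C2 libraries against 44458 to 45433 in OSKM, and 27630 to 43303 in C3 against 48362 to 49366 in OSKM as scaled with C3. Reads in H3K27ac regions ranged from 7033486 (C2 replicate 2) to 17649231 over the 6 libraries, and those in H3K9me3 regions from 3412599 to 8548902. HA libraries kept 1629753 to 3896935 tags after filtering. C3 had its own pair of inputs, while C2 and OSKM shared theirs, so that a difference in inputs and a difference in lines cannot be told apart for C3. In bulk samples, fewer cells with a mark and less mark per cell cannot be told apart either.

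Promoter windows of 300 bases, from 250 before to 50 after the annotated start, were held for 6 of the 8 genes in the RefSeq table of build GRCm38.p6 (mm10), with a pair of starts each for Runx1 and Runx3. The Tek and Kdr windows are shown because each overlapped an H3K27ac region at the start of a receptor gene. The Runx1 windows are shown because the proximal overlapped a strong H3K27ac region and the distal overlapped none. The Laptm5 window is shown because it lay in the strongest region of the 8 genes in C2 and C3. Capitals mark matches, on either strand, to the ETS letters GGAAGT, the GATA letters AGATAA, the RUNX letters TGTGGT or the octamer letters ATGCAAAT.
Tek, chr4:94739039-94739338, plus strand: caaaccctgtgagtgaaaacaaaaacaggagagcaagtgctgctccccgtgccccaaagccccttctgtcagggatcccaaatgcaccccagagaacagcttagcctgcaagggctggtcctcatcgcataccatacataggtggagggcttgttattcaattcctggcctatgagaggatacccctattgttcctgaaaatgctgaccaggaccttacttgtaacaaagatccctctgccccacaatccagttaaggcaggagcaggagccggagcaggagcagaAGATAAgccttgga
Kdr, chr5:75978406-75978705, minus strand: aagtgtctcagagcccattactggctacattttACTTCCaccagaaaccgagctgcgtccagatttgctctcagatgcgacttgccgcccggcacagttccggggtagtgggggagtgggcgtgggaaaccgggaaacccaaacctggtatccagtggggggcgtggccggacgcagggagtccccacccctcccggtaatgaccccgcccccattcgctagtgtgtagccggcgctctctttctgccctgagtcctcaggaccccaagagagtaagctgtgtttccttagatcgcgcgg
Runx1 distal, chr16:92826025-92826324, minus strand: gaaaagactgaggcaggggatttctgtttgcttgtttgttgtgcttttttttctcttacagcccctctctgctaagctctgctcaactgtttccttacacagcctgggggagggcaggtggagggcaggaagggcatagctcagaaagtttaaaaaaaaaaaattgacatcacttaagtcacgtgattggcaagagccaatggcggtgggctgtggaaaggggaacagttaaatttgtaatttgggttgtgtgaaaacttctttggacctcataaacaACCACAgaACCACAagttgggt
Runx1 proximal, chr16:92697280-92697579, minus strand: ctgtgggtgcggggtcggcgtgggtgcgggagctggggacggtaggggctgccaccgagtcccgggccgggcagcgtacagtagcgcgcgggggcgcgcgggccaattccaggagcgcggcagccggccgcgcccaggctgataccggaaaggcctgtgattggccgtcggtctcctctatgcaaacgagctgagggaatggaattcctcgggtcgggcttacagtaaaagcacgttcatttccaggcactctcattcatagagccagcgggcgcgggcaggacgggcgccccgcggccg
Laptm5, chr4:130913066-130913365, plus strand: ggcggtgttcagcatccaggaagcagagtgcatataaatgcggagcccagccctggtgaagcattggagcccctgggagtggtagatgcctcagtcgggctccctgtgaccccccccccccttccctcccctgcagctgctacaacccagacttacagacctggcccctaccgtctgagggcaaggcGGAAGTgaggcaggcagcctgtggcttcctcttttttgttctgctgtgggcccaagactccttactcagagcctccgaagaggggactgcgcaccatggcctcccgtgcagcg
The Tek window held 1 GATA match, at position 37 counted from the annotated start, the Kdr window 1 ETS match and the Laptm5 window 1 ETS match. The distal Runx1 window held 2 RUNX matches at positions 29 and 37 counted from the start, and the proximal window held none of the 4 motifs. No printed window held an octamer match. Of all 32851 promoter windows of this length, 23.8% held the ETS letters, 11.2% the GATA letters, 16.8% the RUNX letters and 1.74% the octamer. The 2 Runx1 windows differed in base composition, with 35 CpG dinucleotides in the proximal and 2 in the distal window, beside a median of 7 over all windows. A match is a description of the letters and not a bound site.

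Relative to OSKM, H3K27ac was higher in C2 in 11 of the 61 regions of the 8 genes that could be tested, and in none was it lower. A region was called at an adjusted p under 0.05 (limma on log2 of normalized reads plus 1, Benjamini-Hochberg adjustment over all regions tested), and the 25% of regions with the lowest mean were left out, which took away 19 of the 80. Over all 100957 regions tested, 5.21% were called higher and 5.38% lower in C2 (10.6% in either direction). The called regions lay at Tek (4), Runx1 (6) and Lyz2 (1). The median log2 fold change was 0.23 over the 61 regions and -0.01 over all regions. In C3, 16 of 62 regions tested were higher than in OSKM and 9 were lower, beside 13.5% and 8.52% of all 101600 regions tested (22% in either direction). The higher regions lay at Tek (4), Kdr (2), Runx1 (8), Lyz2 (1) and Laptm5 (1), and the lower ones at Pecam1 (8) and Runx3 (1). Both comparisons use the same OSKM libraries. With 2 libraries against 2, an exact permutation test of 1 region cannot go below p = 0.33, so calls rest on the spread that limma shares across regions. The split of calls between higher and lower over all regions moved with scaling: 49.2% of the C2 calls were higher as tested, against 37.6% with libraries centred on their median and 62.2% after quantile normalization, and for C3 61.3% as tested against 50.5% with centring.

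**Figure D1:**
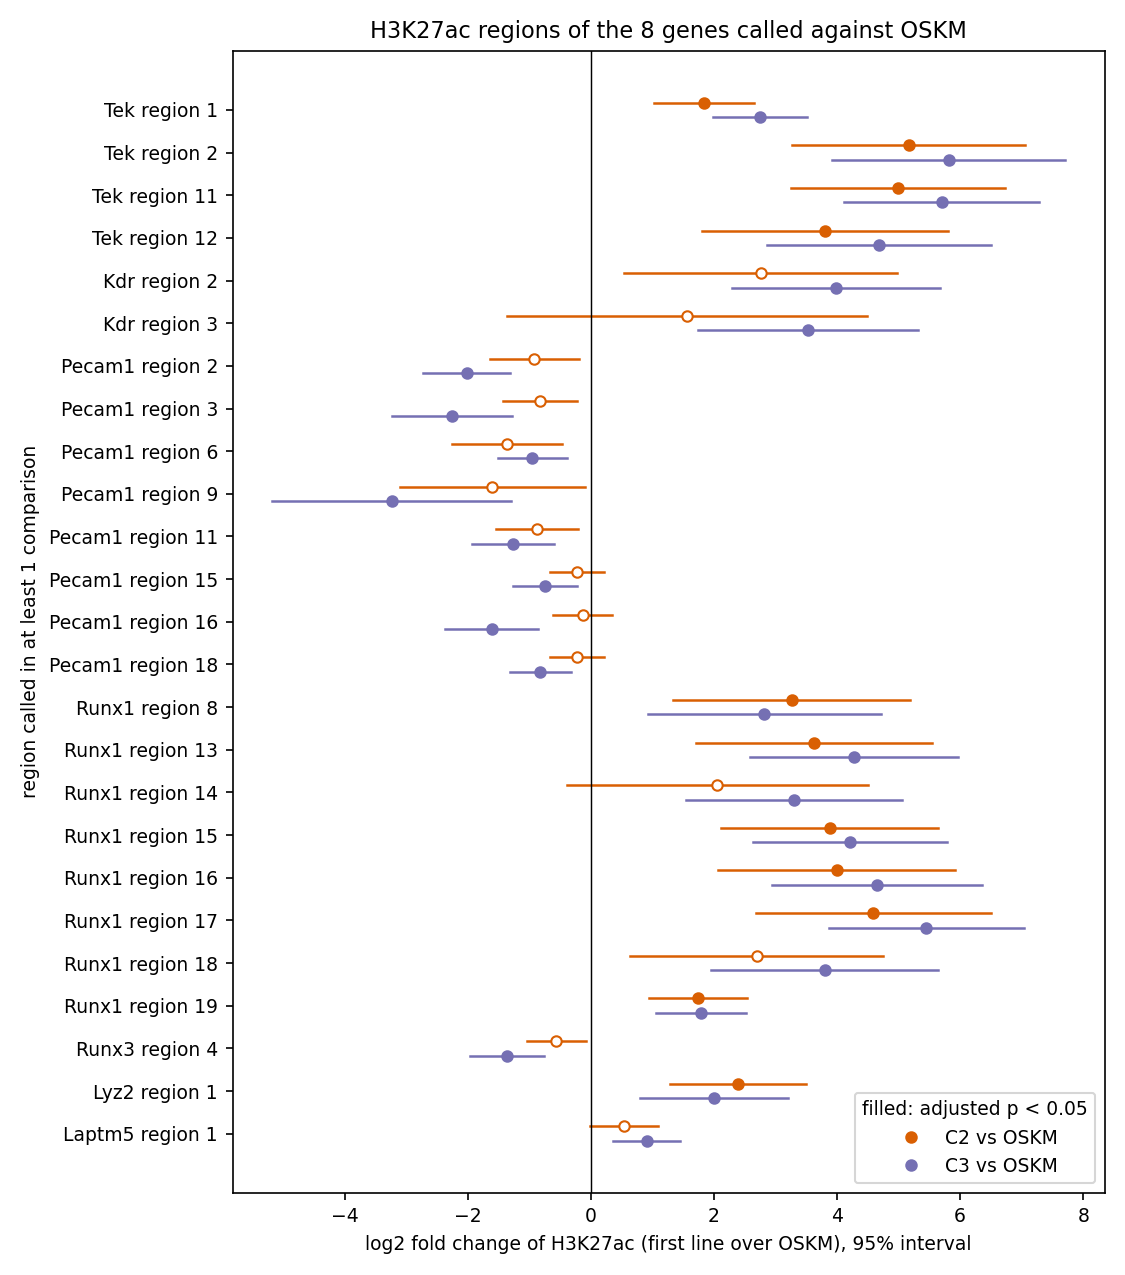
Log2 fold change of H3K27ac in C2 and C3 over OSKM with its 95% interval (x axis), for each region of the 8 genes called in at least 1 comparison (y axis). Filled points passed an adjusted p of 0.05. Tek, Kdr, Runx1, Lyz2 and Laptm5 regions lie to the right of 0, and the Pecam1 and Runx3 regions to the left.

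Tek carried the largest log2 fold change of the 8 genes in both C2 and C3. Its strongest region, region 2 (chr4:94745062-94748907), lies inside the gene 5773 bp after the start. It had 195 and 181 normalized reads in C2, against 1.02 and 12.8 in OSKM. In the table of C3 and OSKM it had 330 and 299 reads in C3, against 1.10 and 13.9 in OSKM. Both zinc-finger lines lay far above both OSKM libraries, and 1 OSKM library was at a single read. The log2 fold change was 5.16 ± 0.83 (SE, adjusted p = 0.0154) in C2 and 5.82 ± 0.82 (adjusted p = 0.00502) in C3.

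The region over the Tek start, region 1 (chr4:94737548-94740535), holds the promoter window printed above. It had 159 and 132 normalized reads in C2, against 29.5 and 53.9 in OSKM, a log2 fold change of 1.84 ± 0.36 (adjusted p = 0.0227). In C3 it had 310 and 286, against 32.0 and 58.6 in OSKM, a log2 fold change of 2.75 ± 0.33 (adjusted p = 0.00378). The groups did not overlap, but unlike in region 2 neither OSKM library was at a single read here. MACS peaks overlapped both regions in all 4 libraries of C2 and C3 and in neither OSKM library.

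Further regions with a difference, 11 and 12, lay near the far end of Tek. Neither overlapped a deposited H3K27ac peak in C2 replicate 2 or in OSKM, and region 12 overlapped none in C3 replicate 2. Region 11 (chr4:94861767-94863238, 122478 bp after the start) had 68.9 and 55.2 normalized reads in C2 and 138 and 80.7 in C3, while both OSKM libraries were at 1 read. Whether input reads were subtracted before these values is not given in the sources used here, and if they were, a value of 1 read is not a raw count and the folds that follow bound the deposited values only. Set against a floor of 3 reads per library, this was at least 21.4-fold higher in C2 and at least 34.8-fold higher in C3 (adjusted p = 0.0140 and 0.00378, limma). Region 12 (chr4:94863583-94864781) had 38.7 and 18.0 reads in C2 and 83.7 and 31.6 in C3, again with OSKM at 1 read, and was at least 9.79-fold and at least 18.3-fold higher (adjusted p = 0.0334 and 0.00756). Region 10, at 104959 bp, behaved differently: it had 23.5 and 24.4 reads in C2 against 28.4 and 18.3 in OSKM, and 48.5 and 24.0 in C3 against 30.9 and 19.9 in OSKM. Its groups overlapped and it was not called in either comparison. Of the other 7 Tek regions, 5 were at 1 read in all libraries, and regions 3 and 7 did not exceed 10.9 normalized reads. Summed over the 12 regions (17812 bp), Tek held 26.0 normalized reads per kb in C2 and 4.60 in OSKM, and 46.6 in C3 and 5.00 in OSKM.

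The size of the difference in region 2 rested on the OSKM libraries. A fit without 1 library leaves 1 library in that group, so its spread comes from the other group alone. Calls kept or lost in such fits, here and below, describe that fit and do not test the call. Without OSKM replicate 1 or 2 its log2 fold change was 3.78 or 6.55 in C2, and 4.403 or 7.23 in C3. That of region 12 in C3 was 3.99 or 5.37 without C3 replicate 1 or 2. In C2 regions 1 and 2 were no longer called without either C2 library (adjusted p up to 0.0577 and 0.0635), region 12 was not called without OSKM replicate 1 (0.0548), and region 11 kept its call without any 1 library. In C3 region 2 was not called without C3 replicate 1 (0.0502), and regions 1, 11 and 12 kept theirs. Quantile normalization ended the C2 calls of regions 2 and 12.

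**Figure D2:**
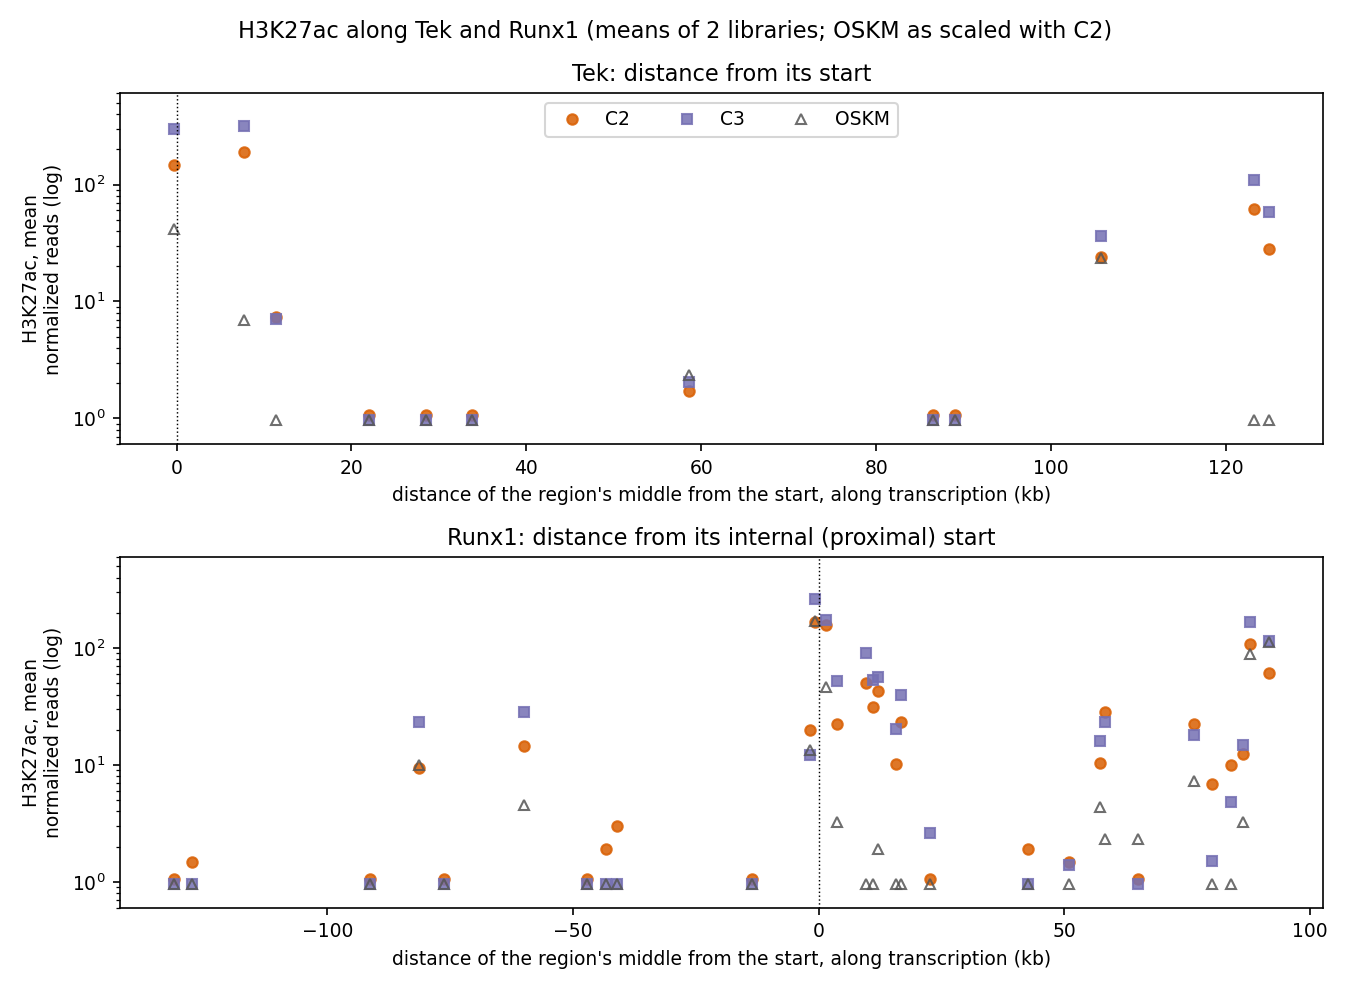
Mean H3K27ac of 2 libraries per line in normalized reads (y axis, log scale) against the distance of each region's middle from the start of the gene in kb (x axis), for Tek and Runx1. At Tek, C2 and C3 stand above OSKM at the start and near the far end, and at Runx1 in the stretch just after the proximal start.

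Kdr had no called region in C2 and 2 in C3. C2 replicate 2 and OSKM replicate 1 had no deposited H3K27ac peak in the Kdr window, and region 2 overlapped none in C3 replicate 2. Region 2 (chr5:75940841-75941841), 36614 bp after the start, had 33.6 and 8.98 normalized reads in C2 against 1.02 and 2.74 in OSKM, and 43.5 and 45.8 in C3 against 1.10 and 2.98 in OSKM. The groups did not overlap in either comparison. The log2 fold change was 2.76 ± 0.97 in C2 (adjusted p = 0.102) and 3.98 ± 0.73 in C3 (adjusted p = 0.00975). Region 3 (chr5:75942239-75942724), 35731 bp after the start, had 27.7 and 1.28 reads in C2 against 1.02 and 2.74 in OSKM, where the C2 libraries straddled those of OSKM. In C3 it had 43.5 and 24.0 against 1.10 and 2.98, a log2 fold change of 3.53 ± 0.77 (adjusted p = 0.0171).

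The strongest Kdr region, region 1 near the 3′ end (chr5:75933350-75935052), was not called. It had 50.4 and 55.2 reads in C2 against 13.2 and 51.1 in OSKM, and 90.3 and 89.4 in C3 against 14.3 and 55.6 in OSKM. Region 4, over the start (chr5:75977747-75978472) and shared with the extent of Gm32727, had 47.9 and 32.1 in C2 against 1.02 and 22.8 in OSKM, and 36.0 and 39.3 in C3 against 1.10 and 24.8 in OSKM. In both regions OSKM replicate 1 was far below replicate 2, and neither passed the test in C2 (adjusted p = 0.332 and 0.168) or in C3 (0.0871 and 0.163). Without 1 library the log2 fold changes in C3 ranged from 3.52 to 4.44 in Kdr region 2 and from 3.07 to 3.99 in region 3. In C2 the authors' deposited table called regions 2 (FDR 0.00164) and 3 (FDR 0.0463).

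Pecam1 went the other way in C3. Its 19 regions covered 39393 bp in and beside the gene, and 8 fell in C3 relative to OSKM while none rose. Region 3 (chr11:106658629-106660806) had 28.4 and 73.1 normalized reads in C3 against 215 and 229 in OSKM, a log2 fold change of -2.26 ± 0.42 (adjusted p = 0.0103). Region 2 next to it (chr11:106657490-106658496) had 34.3 and 32.7 in C3 against 148 and 130 in OSKM, a log2 fold change of -2.02 ± 0.31 (adjusted p = 0.00600). Region 16 (chr11:106709410-106711463) had 68.6 and 133 in C3 against 305 and 283 in OSKM, a log2 fold change of -1.61 ± 0.33 (adjusted p = 0.0133). In none of these 3 regions did the groups overlap. The largest log2 fold change was that of region 9 (chr11:106677195-106677589), at 0.837 and 5.45 reads in C3 against 34.2 and 28.8 in OSKM (-3.23 ± 0.84, adjusted p = 0.0304).

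The strongest Pecam1 region, region 15 (chr11:106702360-106709209), had 404 and 502 normalized reads in C3 against 731 and 778 in OSKM. This was a smaller difference, a log2 fold change of -0.74 ± 0.22 (adjusted p = 0.0484). The other called regions, 6, 11 and 18, had log2 fold changes between -0.82 and -1.26. Of the 19 regions 18 had a negative log2 fold change in C3, and the median was -0.95.

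In C2 no Pecam1 region was called against OSKM, though 17 of 19 log2 fold changes were negative, with a median of -0.62, and 8 had an unadjusted p under 0.05. Region 15 had 583 and 608 reads in C2 against 673 and 716 in OSKM (adjusted p = 0.482). Region 16 had 227 and 267 against 280 and 260 (adjusted p = 0.692), and here the libraries of the lines overlapped. Without 1 library the C3 log2 fold change ranged from -2.11 to -1.93 in region 2 and from -2.08 to -1.14 in region 16. The C3 calls of regions 6, 11, 15 and 18 were lost without either OSKM library, and that of region 9 without C3 replicate 1. Quantile normalization ended the C3 calls of regions 6, 15, 16 and 18, and the authors' deposited table did not call regions 6, 15 and 18. Region 15 was also not called with all regions kept (adjusted p = 0.0530). Without C3 replicate 1 or 2 the log2 fold change of region 3 was -1.59 or -2.92 and that of region 9 was -2.33 or -4.14. In C2 the authors' deposited table called region 9 lower (FDR 0.0280).

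**Figure D3:**
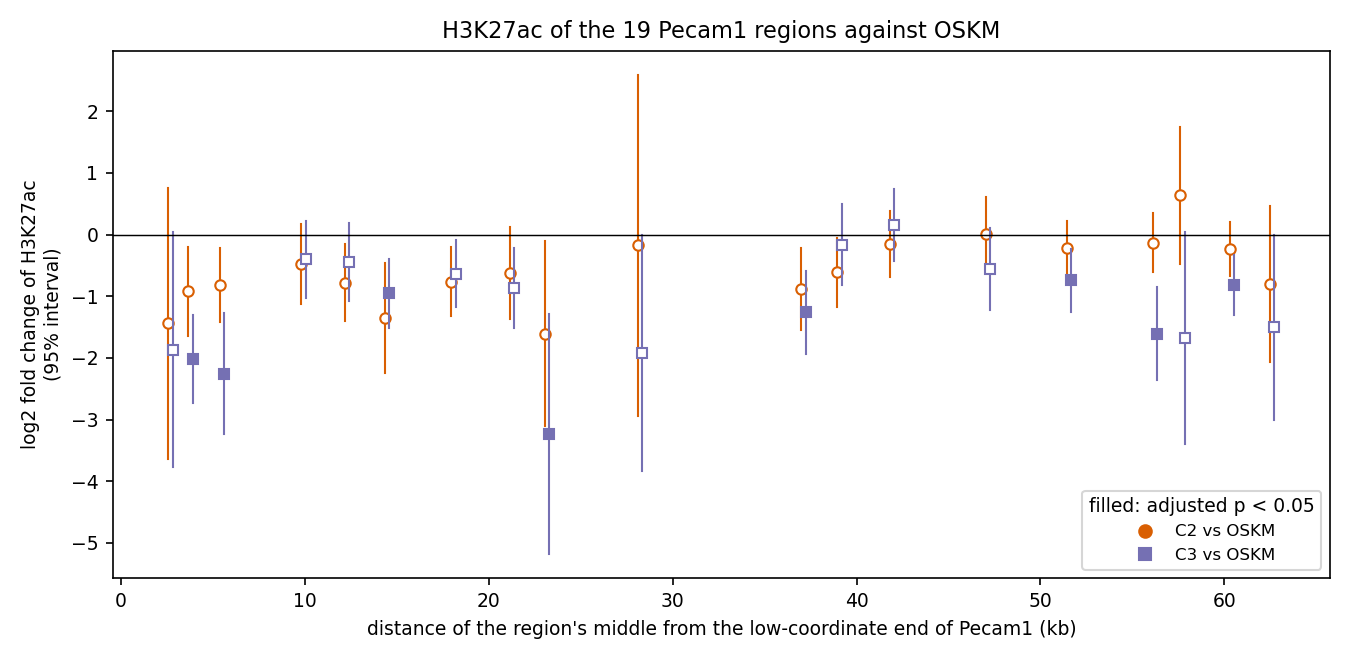
Log2 fold change of H3K27ac over OSKM with its 95% interval (y axis) for the 19 Pecam1 regions by distance from the low-coordinate end of the gene in kb (x axis), C2 as circles and C3 as squares. The 8 filled squares are the regions called lower in C3. No C2 point is filled.

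Runx1 showed 2 patterns, around and inside its proximal promoter. The strongest region, region 20 (chr16:92697421-92698941), overlaps the proximal window printed above. It had 204 and 127 normalized reads in C2 against 142 and 201 in OSKM, and 303 and 225 in C3 against 155 and 218 in OSKM. The C2 and OSKM libraries overlapped, and the log2 fold change was -0.07 ± 0.30 in C2 (adjusted p = 0.895) and 0.50 ± 0.27 in C3 (adjusted p = 0.220). Region 19 (chr16:92694499-92697261), which begins 68 bp after that start, had 187 and 126 in C2 against 35.6 and 57.5 in OSKM, and 177 and 167 in C3 against 38.6 and 62.6 in OSKM. It rose in both lines, with log2 fold changes of 1.74 ± 0.35 (adjusted p = 0.0243) and 1.79 ± 0.32 (adjusted p = 0.00883).

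Further into the gene lay 5 regions (13 to 17), between 9159 and 15971 bp after the proximal start. Each had 1 or 2 reads in every OSKM library and higher means in C2 and C3. None overlapped a deposited H3K27ac peak in C2 replicate 2 or in OSKM, and region 14 had none in C3 replicate 1. Region 17 (chr16:92687076-92688170) had 68.9 and 30.8 normalized reads in C2 and 105 and 74.2 in C3, and was at least 17.2-fold higher in C2 and at least 28.5-fold higher in C3 (adjusted p = 0.0195 and 0.00406). Region 16 was at least 10.8-fold and at least 16.8-fold higher (adjusted p = 0.0272 and 0.00658), and region 13 at least 8.06-fold and at least 12.6-fold (adjusted p = 0.0341 and 0.00797). Region 15, with 2 reads in each OSKM library, had 53.0 and 33.4 in C2 against 2.03 and 1.83 in OSKM, and 63.6 and 50.2 in C3 against 2.21 and 1.99 in OSKM (adjusted p = 0.0239 and 0.00689). Region 14 was called in C3 only (at least 6.46-fold higher, adjusted p = 0.0200). In C2 it had 17.6 and 2.57 reads, and the difference of C2 and C3 there did not pass its own test (adjusted p = 0.697).

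Region 18, 3210 bp after the proximal start, rose in C3, with 59.4 and 45.8 reads against 1.10 and 5.96 in OSKM (3.80 ± 0.80 on the log2 scale, adjusted p = 0.0148). In C2 it had 24.4 and 20.5 reads against 1.02 and 5.48 in OSKM (adjusted p = 0.0891). Region 8, 58141 bp after the proximal start, was called in both lines but near the threshold (adjusted p = 0.0456 in C2 and 0.0439 in C3). No deposited H3K27ac region overlapped the distal promoter window of Runx1, so the window itself was not measured. The regions on either side of it held almost no reads in any line. Region 30, 625 bp after the distal start, had 1 or 2 reads in each library, and region 31 upstream of it had 1 read in all. Of the remaining Runx1 regions, those at the 3′ end (regions 1 and 2) had 34.6 to 208 normalized reads over all libraries and were not called.

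Without 1 library, the C2 calls of Runx1 regions 15, 16 and 17 were kept. Those of region 8 (C2 replicate 2 or OSKM replicate 1, adjusted p up to 0.158), region 13 (either OSKM library, 0.0844) and region 19 (C2 replicate 1, 0.0601) were lost. In C3 regions 13 to 17 and 19 kept their calls, region 18 lost its call without either C3 library (0.0668), and region 8 without either C3 library or OSKM replicate 1 (0.190). Quantile normalization ended the C2 calls of regions 8, 13, 15 and 16 and the C3 call of region 8, which was also lost in both lines with all regions kept. Without OSKM replicate 1 or 2 the log2 fold change of region 8 was 2.66 or 3.87 in C2 and 2.197 or 3.44 in C3, and that of region 18 in C3 was 2.93 or 4.66. In C2 the authors' deposited table also called regions 14 (FDR 0.0144) and 18 (FDR 0.00209).

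Runx3, a relative of Runx1 in T cells and other blood cells, fell in C3. Its strongest region, region 4 (chr4:135166232-135168557), lies 13687 bp after the internal start. It had 87.0 and 125 normalized reads in C3 against 269 and 270 in OSKM. The log2 fold change was -1.36 ± 0.26 (adjusted p = 0.0108, limma), and without 1 library it ranged from -1.62 to -1.10. In C2 region 4 had 177 and 159 against 248 and 248 in OSKM. These also did not overlap, but the difference did not pass the test (-0.56 ± 0.21, adjusted p = 0.116). Region 2, 152 bp before the internal start (chr4:135151955-135152393), had 26.9 and 12.8 reads in C2 against 26.4 and 26.5 in OSKM, and 8.37 and 18.5 in C3 against 28.7 and 28.8 in OSKM, and was not called. Region 1, 834 bp before the upstream start and shared with the extent of Gm16225, was not called either (adjusted p = 0.889 in C2 and 0.300 in C3).

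Of the white blood cell genes, Lyz2, which encodes lysozyme of macrophages and neutrophils, had a single region with reads. This region 1 (chr10:117275296-117276394) lies 1147 bp beyond the 3′ end of the gene. It had 106 and 130 normalized reads in C2 against 13.2 and 34.7 in OSKM, and 118 and 78.5 in C3 against 14.3 and 37.7 in OSKM. Both lines lay above OSKM. The difference on the log2 scale was 2.39 ± 0.48 in C2 (adjusted p = 0.0248) and 2.00 ± 0.52 in C3 (adjusted p = 0.0305). Region 2, 582 bp upstream of the Lyz2 start, was at 1 read in all libraries. The C2 call was lost without either C2 library (adjusted p up to 0.101) and the C3 call without either C3 library or OSKM replicate 1 (up to 0.168), and quantile normalization ended both. Without OSKM replicate 1 or 2 the log2 fold change was 1.73 or 3.06 in C2 and 1.33 or 2.66 in C3.

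Laptm5, a lysosomal membrane protein of blood cells, had the highest H3K27ac per kb in C2 and C3 among the strongest regions of the 8 genes. Region 1 over its start (chr4:130908449-130916160), shared with the extent of Gm38599, had 1243 and 828 normalized reads in C2 against 665 and 733 in OSKM, and 1553 and 1301 in C3 against 723 and 797 in OSKM. The groups did not overlap in either comparison. It rose in C3, with 0.90 ± 0.24 on the log2 scale (adjusted p = 0.0308), and did not pass in C2 (0.54 ± 0.24, adjusted p = 0.183). The C3 call was lost without either OSKM library (adjusted p up to 0.478) and with libraries centred on their median (0.0681), and the authors' deposited table gave an FDR of 0.0751.

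Adgre1, the macrophage marker F4/80, was at or near 1 read in the deposited H3K27ac values, although every library had an H3K27ac peak in its window. Its region 1 (chr17:57373965-57374910) was at 1 read in both C2 and both OSKM libraries and had 6.69 and 6.55 normalized reads in C3, which did not pass the test (adjusted p = 0.0856). The authors' deposited table called it in C3 (log2 fold change 2.66, FDR 0.0443). The highest fold enrichment of a peak, as the authors' peak caller gave it, was 10.1 and 2.40 in the C2 libraries, 14.1 and 4.89 in C3 and 8.4997 and 4.83 in OSKM. Regions 2 and 3 were at 1 read throughout.

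**Figure D4:**
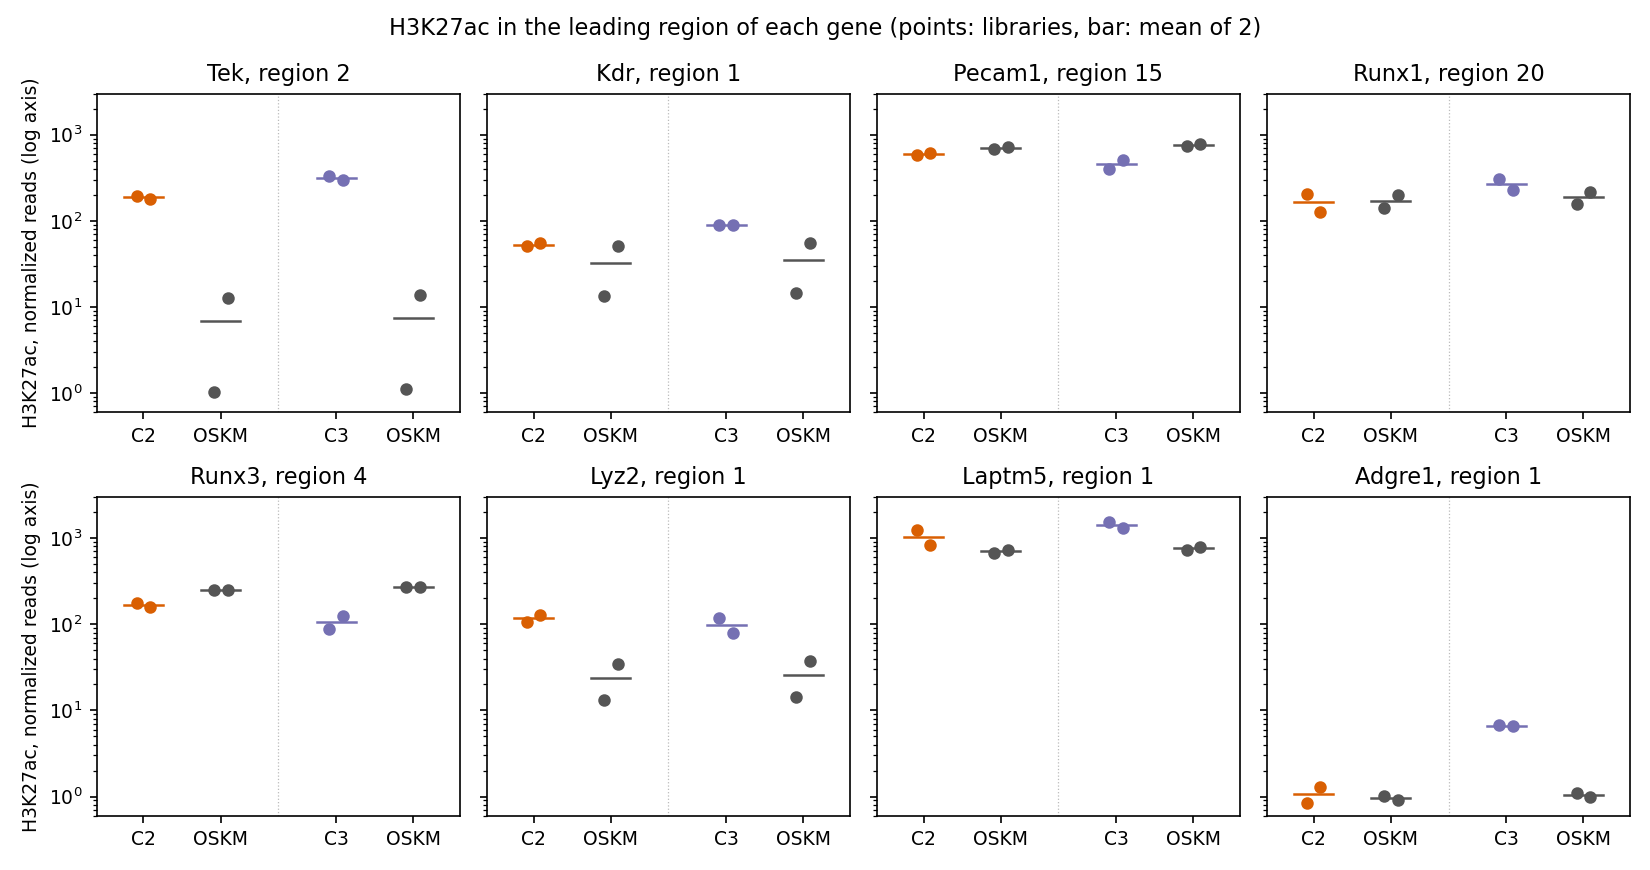
H3K27ac of each library in normalized reads (y axis, log scale) in the strongest region of each gene, with C2 beside OSKM and C3 beside OSKM as scaled in their own tables (x axis). Points are libraries and bars the mean of 2. Tek and Lyz2 stand above OSKM in C2 and C3, while Pecam1 and Runx3 stand below OSKM in C3.

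Per kb of the strongest region, Laptm5 (161 and 107 normalized reads per kb), Runx1 (134 and 83.5) and Lyz2 (96.4 and 118) had the highest means in C2 and overlapped each other, and both Pecam1 libraries (85.2 and 88.8) lay within the range of Runx1. Runx3 (75.9 and 68.4), Tek (50.7 and 47.0), Kdr (29.6 and 32.4) and Adgre1 followed and overlapped no other gene. In C3 Laptm5 (201 and 169) and Runx1 (199 and 148) overlapped at the top. Lyz2 (107 and 71.5) overlapped Tek (85.9 and 77.7) and Pecam1 (59.0 and 73.3), Kdr (53.0 and 52.5) lay within the range of Runx3 (37.4 and 53.9), and Adgre1 was lowest. In OSKM the libraries of Runx1 (93.5 and 132) overlapped those of Runx3 (107 and 107), Pecam1 (98.2 and 104) and Laptm5 (86.3 and 95.04), so that no order was given among Runx1 and these 3. Lyz2 and Kdr overlapped further down, and Tek (0.264 and 3.32) overlapped Adgre1. Tek stood below Kdr in OSKM and above Kdr in C2 and C3, a description of levels with no test.

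No region of the 8 genes was called between C2 and C3 in H3K27ac, out of 62 tested (limma), beside 0.0581% of all 101532 regions (0.0276% higher and 0.0305% lower in C2). At an unadjusted p under 0.05 there were 8. edgeR and the authors' deposited table also called 0, while keeping all regions called 3 and a fit with the replicate number as a block called 10. Tek region 2 had 208 and 191 normalized reads in C2 against 314 and 285 in C3, and the 95% interval of the log2 difference ran from -1.20 to 0.03 (adjusted p = 0.434). Pecam1 region 16 had 242 and 282 in C2 against 65.1 and 127 in C3, a log2 fold change of 1.51 ± 0.35 that missed the threshold after adjustment (adjusted p = 0.123). Runx3 region 4 had 188 and 168 in C2 against 82.6 and 120 in C3 (0.83 ± 0.32, adjusted p = 0.315). Runx1 region 19 had 199 and 133 in C2 against 168 and 159 in C3, with an interval from -0.68 to 0.66. The libraries of C2 and C3 did not overlap in the first 3 of these regions and did in the last.

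H3K9me3 was called higher than OSKM in 1 of 12 tested regions in C2 and in 2 of 12 in C3, all at Laptm5, and lower in 1 in C3, at Runx3. Over all 51633 regions 0.389% were higher and 2.9% lower in C2 (3.29% in either direction), and 1.72% were higher and 7.35% lower in C3 (9.06% in either direction). The share of all calls that were higher moved with scaling. For C2 it was 11.8% as tested and 28.0% after quantile normalization, and for C3 18.95% and 40.2%. In the authors' deposited table, which differs in its test and in the regions kept, it was 34.7% for C2 and 34.3% for C3. The median log2 fold change over the 12 regions was -0.06 in C2 and -0.13 in C3, beside -0.15 and -0.06 over all regions.

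Region 1 of Laptm5 (chr4:130931395-130933843), 18079 bp after the start in the far part of the gene, had 246 and 247 normalized reads of H3K9me3 in C2 against 112 and 131 in OSKM, and 209 and 255 in C3 against 125 and 144 in OSKM. The libraries of the lines did not overlap. The log2 fold change was 1.01 ± 0.20 in C2 (adjusted p = 0.0183) and 0.78 ± 0.18 in C3 (adjusted p = 0.0184). Region 2 beside it (chr4:130934246-130935621) had 55.0 and 69.7 in C2 against 31.5 and 5.14 in OSKM (adjusted p = 0.101), and 87.9 and 91.1 in C3 against 35.2 and 5.63 in OSKM, a log2 fold change of 2.55 ± 0.63 (adjusted p = 0.0251). H3K27ac at the start of Laptm5 and H3K9me3 in its far part were thus both higher in C3. The C2 call of region 1 was lost without either OSKM library (adjusted p up to 0.225), its C3 call without C3 replicate 2 or either OSKM library (up to 0.149), and that of region 2 without OSKM replicate 2 (0.0904). The log2 fold change of region 2 in C3 was 3.77 or 1.32 without OSKM replicate 1 or 2.

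At Runx3, region 2 of H3K9me3 (chr4:135153820-135155289), 1275 bp after the internal start, had 130 and 118 normalized reads in C3 against 269 and 239 in OSKM. It fell by 1.02 ± 0.17 on the log2 scale (adjusted p = 0.00298). In C2 it had 162 and 197 against 241 and 218 (-0.36 ± 0.20, adjusted p = 0.379). Both marks were therefore lower at Runx3 in C3 than in OSKM, in separate regions. The H3K9me3 call was lost without OSKM replicate 1 (adjusted p = 0.0635).

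The other leading regions of H3K9me3 were not called. Tek region 3 (chr4:94811744-94820683), in the middle of the gene 72455 bp after the start, had 258 and 192 reads in C2 against 287 and 292 in OSKM, and 320 and 415 in C3 against 320 and 319 in OSKM. Adgre1 region 3 (chr17:57381697-57384341) had 159 and 120 in C2 against 141 and 121 in OSKM, and 159 and 125 in C3 against 158 and 133 in OSKM. Runx1 region 1 had 37.8 and 39.0 in C2 against 47.7 and 28.6 in OSKM, and 100 and 74.4 in C3 against 53.2 and 31.4 in OSKM (adjusted p = 0.968 and 0.0780), and the authors' deposited table called it in C3 (FDR 0.0457). No region of the 8 genes differed between C2 and C3 by the limma test, of 12 tested, beside 0.134% of all 51632 regions (0.0465% higher and 0.0872% lower in C2). At an unadjusted p under 0.05 there were 3, and edgeR and the authors' deposited table also called 0.

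**Figure D5:**
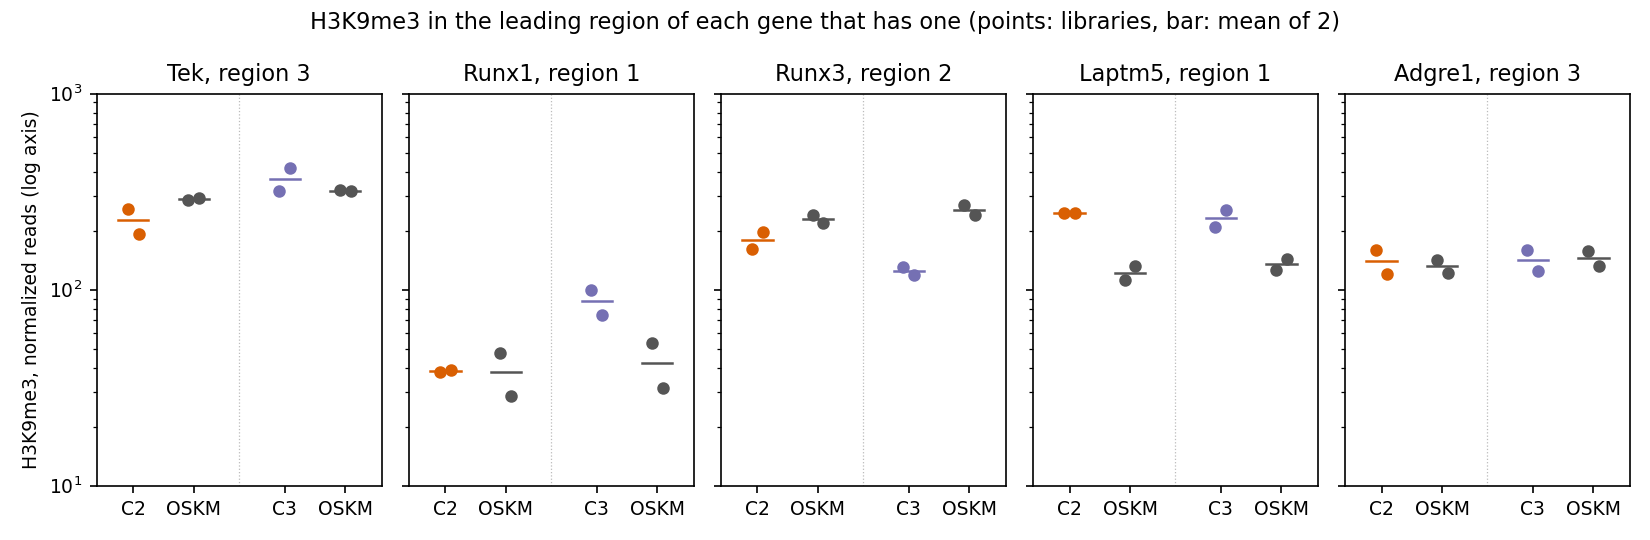
H3K9me3 of each library in normalized reads (y axis, log scale) in the strongest region of the 5 genes that have one, with C2 beside OSKM and C3 beside OSKM (x axis). Points are libraries and bars the mean of 2. Laptm5 stands above OSKM in both lines, and Runx3 below OSKM in C3.

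HA peaks fell in the windows of Tek and Adgre1 only, among the 8 genes. The Empty control had peaks there too, so a peak alone does not mark a tagged zinc-finger factor. The redundant rate of tags, per the peak file headers, was 0.92 to 0.94 in the HA libraries. C2 replicate 1 had 3 at Tek and 2 at Adgre1, and C2 replicate 2 had 11 and 5. Empty replicate 1 had 2 at Tek and 1 at Adgre1, and Empty replicate 2 had 9 and 3. Peak numbers differed as much between libraries of 1 group as between groups. Merged where they overlapped, the peaks made 25 sites, and 1 of them, at Tek, had a peak in both C2 libraries and in neither Empty library, beside 4.18% of 68153 sites over the genome. The summits of the Tek peaks lay 52738 to 104574 bp after the Tek start.

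Other genes of these lineages, each taken by its strongest H3K27ac region, moved in both directions. The counts that follow stand beside 5.21% of all regions called higher and 5.38% lower in C2, and 13.5% higher and 8.52% lower in C3. Of 21 endothelial genes listed, 19 had an H3K27ac region and 18 were tested. Tie1 and Cdh5 had no region, and Emcn was at 1 read in every library of C2, C3 and OSKM. Of the 18 tested, 2 rose and 2 fell in C2, and 5 rose and 3 fell in C3. The medians were 0.27 and 0.23, beside -0.01 and 0.03 over all regions. Prox1, a lymphatic endothelial factor that is also used in liver and other endoderm, had 104 and 65.4 normalized reads in C2 against 1.02 and 4.56 in OSKM, and 214 and 129 in C3 against 1.10 and 4.96 in OSKM (adjusted p = 0.0162 and 0.00393). Icam2, an adhesion molecule, rose by 1.26 in C2 and 1.61 in C3 on the log2 scale, and Erg, an ETS factor, by 3.18 in C3. Eng, a TGF-beta co-receptor, fell by 0.80 in C2 and 1.10 in C3, Robo4 fell by 1.17 in C2, and Nos3 and Etv2 fell by 1.52 and 1.22 in C3.

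Of 10 ligands and partners of the 8 genes, 1 rose and 2 fell in C2, and 2 rose and 2 fell in C3, beside the same shares of all regions. Ptprb, the phosphatase that acts on the Tek receptor, had 98.4 and 65.4 reads in C2 against 14.2 and 10.0 in OSKM, and 195 and 178 in C3 against 15.5 and 10.9 in OSKM (adjusted p = 0.0205 and 0.00315). Runx1t1, a corepressor known as a fusion partner of RUNX1 in human leukaemia, rose by 1.64 in C3. Cbfb, the partner that Runx proteins need to bind DNA, fell by 1.37 in C2 and 1.21 in C3, Vegfc fell by 1.46 in C2 and Angpt2 by 0.97 in C3. Cbfb, Vegfc and Angpt2 lie on chromosome 8, which held 4.15% and 3.46% of the reads in H3K27ac regions in C2 and 4.29% and 3.84% in C3, against 7.61% and 7.48% in OSKM. Its part in these calls was not tested.

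Of 17 blood transcription factors tested in C2, none rose and 3 fell (Zfpm1, Lyl1 and Klf1), and in C3 none of 16 rose and 2 fell (Zfpm1 and Klf1), all of which also lie on chromosome 8. Over all regions 5.38% were called lower in C2 and 8.52% in C3. Of 13 leukocyte genes tested, none was called in C2 and 1 fell in C3 (Tyrobp, by 2.87). Of 21 leukocyte genes listed 16 had a region, and among these Ptprc, Csf1r and Aif1 were at 1 read in every library of C2, C3 and OSKM. The summed level of the 16 was 1907 to 2546 normalized reads in C2 against 2840 to 3037 in OSKM. In C3 it was 2605 to 3851 against 3086 to 3303 in OSKM. Of 10 endoderm markers, 4 rose in C2 and 8 in C3, and none fell, beside 5.21% of all regions called higher in C2 and 13.5% in C3. Their summed level was 2254 to 4106 normalized reads in C2 against 1332 to 1919 in OSKM, and 4597 to 8062 in C3 against 1447 to 2088 in OSKM, and no marker was at 1 read in all libraries. Of 10 fibroblast markers 7 had a region, 6 were tested in C2 and 5 in C3, and none was called. Their summed level was 260 to 265 in C2 against 178 to 273 in OSKM, and 304 to 320 in C3 against 193 to 297 in OSKM, with Postn at 1 read in C2, C3 and OSKM. Whether the cells that carried the endoderm marks also carried those of Tek, Kdr, Runx1 or Lyz2 was not tested.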

How the data were processed

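ChIP-seq of H3K27ac and H3K9me3 was compared between C2, C3 and OSKM cells (2 libraries each), and HA peaks between C2 and Empty. Per the submitters' processing notes, DiffBind 1.16.2, SAMtools 1.3, Bowtie2 2.2.5 and CASAVA 1.8.2 were used. Peaks were called per library with MACS 2.1.0.20150731 (histone marks) or 2.1.1.20160309 (HA), per the file headers. The authors deposited normalized reads per region (a signal), with their own log2 fold changes, p-values and FDR, scaled separately in each table. Their peak lists give, per the file headers, pileup signal, fold enrichment and −log10 p and q. Every normalized value was a whole multiple of 1 read (100% whole, tolerance 1e-06), and no value lay under 1 read.

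Regions were taken in a window of 2500 bp around each gene. limma 3.58.1 (R 4.3.3) was fitted with a trend on log2 of normalized reads plus 1, over all regions of a table except the 25% with the lowest mean. Folds against groups at 1 read use a floor of 3 reads per library. edgeR 4.0.16 on recovered reads was an alternative. Scripts were tested on simulated data. Named by rule were each gene's region with the highest mean (its strongest region), the region at or nearest an annotated start, the called region with the largest absolute log2 fold change in each comparison, and up to 3 called genes per direction of each further list. The other regions given were chosen after their values were seen. Members and lists were chosen with earlier results of these data known. Intervals and SEs are limma's and reflect the spread between libraries, while the floor covers counting error only. Whether input reads were subtracted is not given in the sources used here. Exons and introns were not placed.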

Additional observations from a re-analysis of the deposited data

Results flagged for a closer look

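HA peaks, which the comparisons of the histone marks do not use, gave 1 site in the windows of the 8 genes with a peak in both C2 libraries and in neither Empty library, at Tek (chr4:94797218-94797886). C2 replicate 1 had a pileup of 11 tags there, with a fold enrichment of 8.62 and a −log10 q of 9.35, and C2 replicate 2 a pileup of 9, a fold enrichment of 6.59 and a −log10 q of 6.03, all as the authors' peak caller gave them. The summits lay 58322 and 58117 bp after the Tek start. The site overlaps H3K27ac region 7 and H3K9me3 region 2 of Tek, which held few normalized reads but overlapped deposited peaks in 5 and 6 of the 6 libraries of their mark. Of 68153 sites over the genome 2846 (4.18%) had a peak in both C2 libraries and in neither Empty library, and 834 had the opposite pattern. The Empty libraries kept fewer tags after filtering (1707437 and 1629753) than the C2 libraries (2506011 and 3896935). The part of depth in these counts was not tested.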

How the results depend on the processing

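Counts of called regions moved with the processing, and no called region of the 8 genes changed direction under any alternative run. For H3K27ac in C2 over OSKM, 10691 regions were called, against 17254 with median-centred libraries, 3341 after quantile normalization and 17947 in the authors' deposited table. For the 8 genes the count was 11, against 5 after quantile normalization and 19 in the authors' deposited table. Between C2 and C3, 59 H3K27ac regions were called, against 2723 with all regions kept, 171 with a pseudocount of 8, 285 with edgeR, 0 after quantile normalization and 2430 in the authors' deposited table. For the 8 genes that comparison gave 3 with all regions kept. For H3K9me3 in C2 over OSKM, 1698 regions were called, against 808 with all regions kept, 578 after quantile normalization and 3379 in the authors' deposited table. Between C2 and C3, 69 H3K9me3 regions were called, against 403 with all regions kept, 122 with a pseudocount of 8, 140 with edgeR and 685 in the authors' deposited table. HA sites in both C2 libraries only numbered 2 at a −log10 q of 5 or more, against 1. At the added site, also at Tek, both C2 peaks passed that cut (5.48 and 5.06). The Empty replicate 2 peak that overlapped them (4.48) did not. The causes of the changes in called regions were not tested.

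Leaving out 1 library at a time gave 6439 to 24893 H3K27ac calls for C2 over OSKM (10 to 19 at the 8 genes), 17378 to 22921 for C3 over OSKM (19 to 26) and 326 to 9001 between C2 and C3 (0 to 6). For H3K9me3 it gave 501 to 8330 (0 to 3), 1503 to 8483 (1 to 5) and 75 to 902 (0 to 0). HA sites ranged from 1 to 8. Without C2 replicate 1 or 2 a site needed a peak in the remaining C2 library alone, which gave 8 or 5. Those HA counts are not the same measure as the main count of 1. The histone counts come from fits with 1 library in a group, where the spread came from the other group alone. They are not a like test to the main counts.

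Replicate numbers are shared by label only. The difference between the replicates of a line was correlated, over the regions tested, with the same difference in the other line. The correlation was -0.054, -0.041 and 0.35 for H3K27ac and 0.0024, 0.035 and 0.11 for H3K9me3. The order was C2 with OSKM, C3 with OSKM and C2 with C3. These values are not correlations of the libraries themselves. A fit with the replicate block gave 17039 H3K27ac calls for C2 over OSKM and 13562 between C2 and C3 (10 at the 8 genes), and 3439 (2 at the 8 genes), 7256 and 474 for H3K9me3 in C2 over OSKM, C3 over OSKM and C2 over C3. Under it Pecam1 region 15 had an adjusted p of 0.0608 in C3 over OSKM.

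Values that changed sign belonged to regions not called. In C2 over OSKM for H3K27ac, quantile normalization gave 0.33, 0.20 and 0.23 at Pecam1 regions 15, 16 and 18 and 0.14 at Runx1 region 20, where edgeR gave 0.021, and median centring gave -0.042 at Runx3 region 1. Without 1 library, Kdr region 3 ranged from -0.27 to 3.39, Runx1 region 20 from -0.41 to 0.27, Runx3 region 1 from -0.053 to 0.19 and Runx3 region 2 from -0.99 to 0.024. In C2 over C3, Runx1 region 19 was 0.15 after quantile normalization, 0.074 with edgeR and 0.017 in the authors' deposited table, and Laptm5 region 1 was 0.11 after quantile normalization. Without 1 library, Kdr region 4 ranged from -0.077 to 0.50, Pecam1 region 6 from -1.02 to 0.28, Runx1 region 14 from -2.38 to 0.041, region 15 from -0.60 to 0.068 and region 19 from -0.30 to 0.28. For H3K9me3 without 1 library, C2 over OSKM ranged from -0.31 to 0.41 at Runx1 region 1, -0.58 to 1.07 at Runx3 region 1 and -0.13 to 0.28 at Adgre1 region 3. C3 over OSKM ranged from -0.00032 to 0.37 at Tek region 3, -0.44 to 0.0041 at Runx1 region 2, -1.002 to 0.22 at Runx3 region 1 and -0.21 to 0.14 at Adgre1 region 3, which was 0.0087 with median centring, 0.10 after quantile normalization and 0.054 with edgeR. C2 over C3 ranged from -0.40 to 0.0075 at Runx1 region 2, -0.35 to 1.19 at Runx1 region 3, -0.19 to 1.47 at Runx3 region 1 and -0.070 to 0.32 at Adgre1 region 3. Where both groups were at 1 read, no difference could be measured.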

Other observations

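Of the 80 H3K27ac regions of the 8 genes, 26 (32.5%) overlapped no deposited H3K27ac peak of any of the 6 libraries, and 25 of these were exactly 1001 bp wide. Over all H3K27ac regions 41484 (30.6%) had no peak, 38728 of them 1001 bp wide, while 871 regions of that width had one. No H3K9me3 region lacked a peak. Adgre1 region 1 of H3K27ac showed the opposite, with a peak in all 6 libraries and 1 read in each C2 and OSKM library after the authors' processing.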
